A study of Mus musculus with 12 samples.

Results

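The 34 genes described here encode the enzymes, carriers and regulators of fatty acid oxidation, together with 1 enzyme of ketone body metabolism. They were taken by gene symbol from the non-control probes of a mouse microarray, and each gene was read from its brightest probe. All 34 were among the 25937 genes measured, and the probe used for each was well above background on all 12 arrays. Kidneys of male mice fell into 4 groups with 3 arrays each, which the series text calls independent samples, and the knockout was made on a C57/6J background. The groups were sham-operated wild type (WT sham), wild type at 24 h after ischemia-reperfusion injury (WT IRI), sham-operated Jaml knockout (KO sham) and Jaml knockout at 24 h after the same injury (KO IRI). In this injury the vessels of both kidneys are closed for a time and then reopened. The closure lasted 40 min according to the series text and 30 min according to the protocol, a conflict that the labels leave unsettled. The deleted gene, Jaml, codes for an adhesion protein related to the junctional adhesion molecules. The labels give neither the knockout allele nor the age of the mice, and name no Cre line.

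Fatty acids are first joined to coenzyme A by acyl-CoA synthetases, carried into mitochondria as carnitine esters, and shortened there by repeated cycles of dehydrogenation, hydration, a second dehydrogenation and thiolysis. Peroxisomes run a parallel cycle on very long, branched and dicarboxylic fatty acids. PPAR-alpha, a nuclear receptor that binds fatty acids, switches on genes of both compartments in fasting liver and in proximal tubule, and PGC-1alpha is a coactivator that works with it. The proximal tubule of the kidney takes most of its energy from fatty acids.

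Levels are given as log2 signal minus the 75th percentile of the array, and they can be compared between arrays for a gene but not between genes, because probes differ. Between 35598 and 38522 probes per array were well above background (62.9% to 68.1%), and no spot was saturated. All 19 proximal tubule markers on the list, among them Slc34a1 and Lrp2, were detected on these arrays. The targeted gene Jaml was lower in KO sham than in WT sham kidneys, with a log2 difference of -2.79 ± 0.56 (SE of the fit, n = 3 per group, adjusted p = 0.0152). In injured kidneys it was -1.57 ± 0.56, which missed the threshold (adjusted p = 0.153), with WT IRI replicates 2 and 3 at -1.8 and -1.64, just above the highest knockout level of -1.89, and replicate 1 at 0.55. All 6 WT arrays were on 1 slide and all 6 KO arrays on another, so genotype and slide cannot be told apart, whereas each IRI response lies within a slide.

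A pair of WT arrays stood apart in these genes. WT sham replicate 3 deviated from its group mean by 0.448 log2 units (root mean square over the 34 genes), against 0.228 and 0.236 for the other WT sham arrays. WT IRI replicate 1 deviated by 0.606, and over all genes by 0.579, the largest value of the 12 arrays. In KO sham kidneys the 34 genes deviated by only 0.0757 to 0.139. In the map of the 34 genes by array, WT sham replicate 3 reads closer to the injured kidneys than its companions for Acot1, Acot2, Slc25a20 and Ehhadh. Results for WT kidneys are therefore also given without these arrays. The arrays were picked after their values in these genes were seen, so calls gained without them are a description and no further support. With WT sham replicate 1 or replicate 2 left out instead, only Acaa1b passed in WT.

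**Figure D1:**
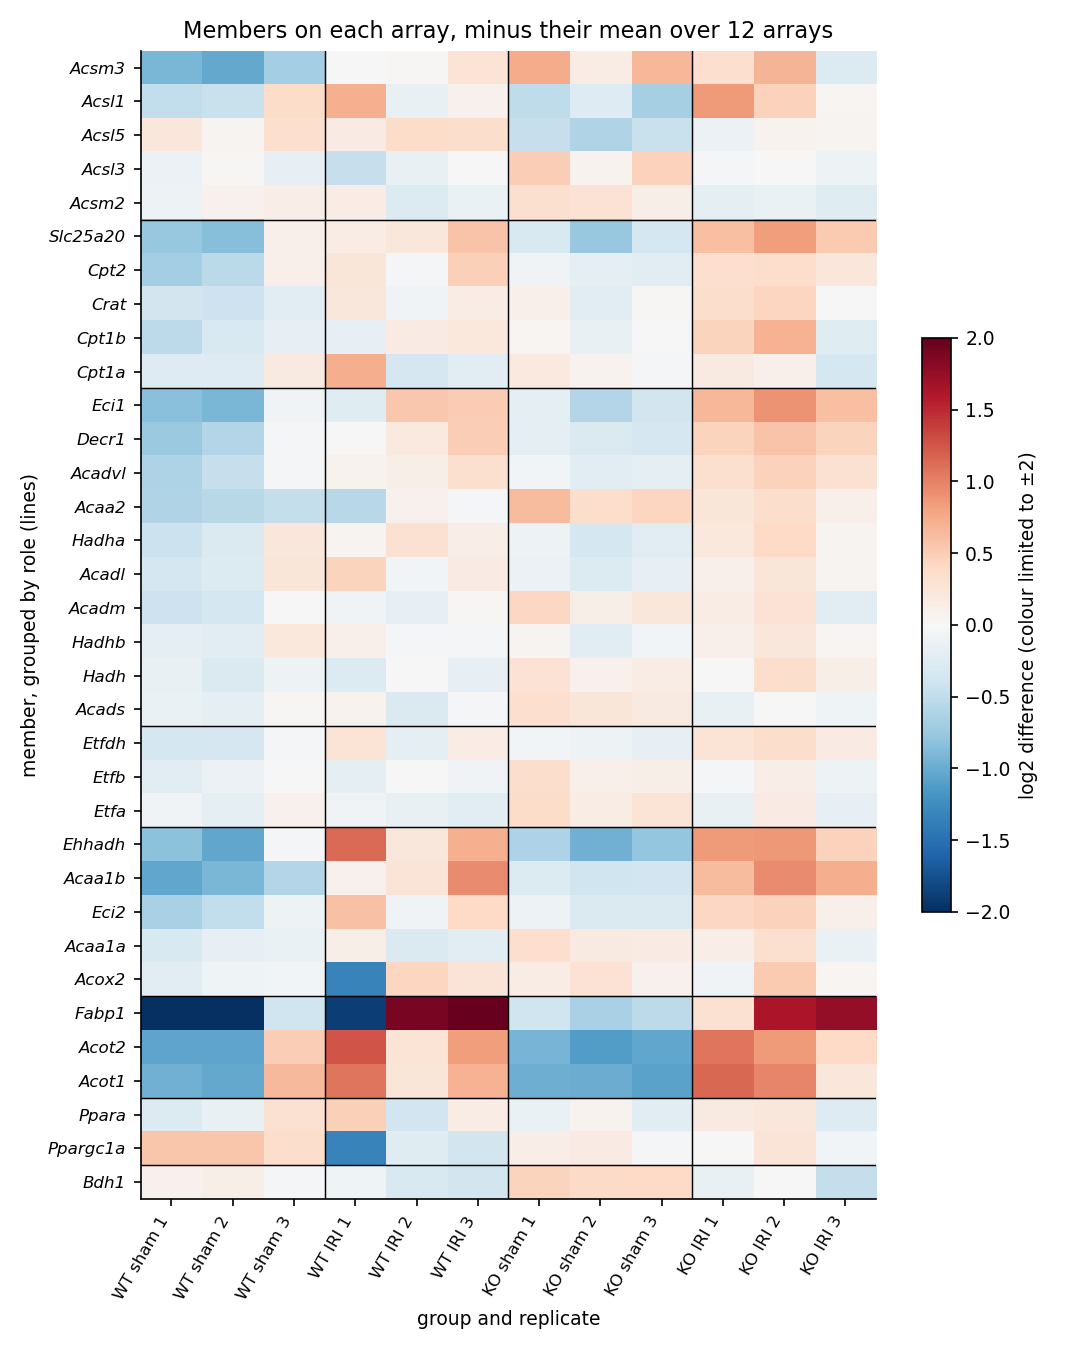
Level of each of the 34 genes (rows, grouped by role) on each of the 12 arrays (columns), as the log2 difference from the gene's mean over 12 arrays, with colour limited to ±2. The KO sham arrays are alike, whereas WT sham replicate 3 and WT IRI replicate 1 differ from the other arrays of their groups.

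After IRI, most of the called genes rose in both genotypes. The largest called rises were those of the peroxisomal enzymes Ehhadh and Acaa1b in WT and of the acyl-CoA thioesterases Acot2 and Acot1 in KO. In WT kidneys 5 of 34 genes rose (Acaa1b, Ehhadh, Acsm3, Eci2 and Decr1) and 1 fell (Ppargc1a), at a limma adjusted p under 0.05. That is 14.7% higher and 2.94% lower, where 6.07% of all genes rose and 5.90% fell (12.0% in either direction). In KO kidneys 8 of 34 rose (Acot2, Acot1, Ehhadh, Acaa1b, Slc25a20, Eci1, Decr1 and Acsl5) and 1 fell (Bdh1), or 23.5% and 2.94%, where 2.11% of all genes rose and 4.05% fell (6.15% in either direction). The median change of the 34 genes was 0.33 in WT and 0.31 in KO on the log2 scale, against medians over all genes of -0.01 and -0.08. All 3 arrays of IRI lay above all 3 of sham for 8 genes in WT and 16 in KO (23.5% and 47.1%), where the same held for 17.2% and 13.9% of all genes. The IRI arrays lay below the sham arrays for 2 genes in WT and 5 in KO (5.88% and 14.7%), where this held for 15.1% and 21.8% of all genes. In either direction, 32.3% of all genes did not overlap in WT and 35.7% in KO. Acaa1b, Ehhadh and Decr1 were called in both genotypes, which is 50% of the WT calls and 33.3% of the KO calls. Across the 34 genes the WT and KO changes had a Pearson correlation of 0.79, against 0.6 over all genes. This is a description only, since the genes of a response share the same 6 arrays.

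**Figure D2:**
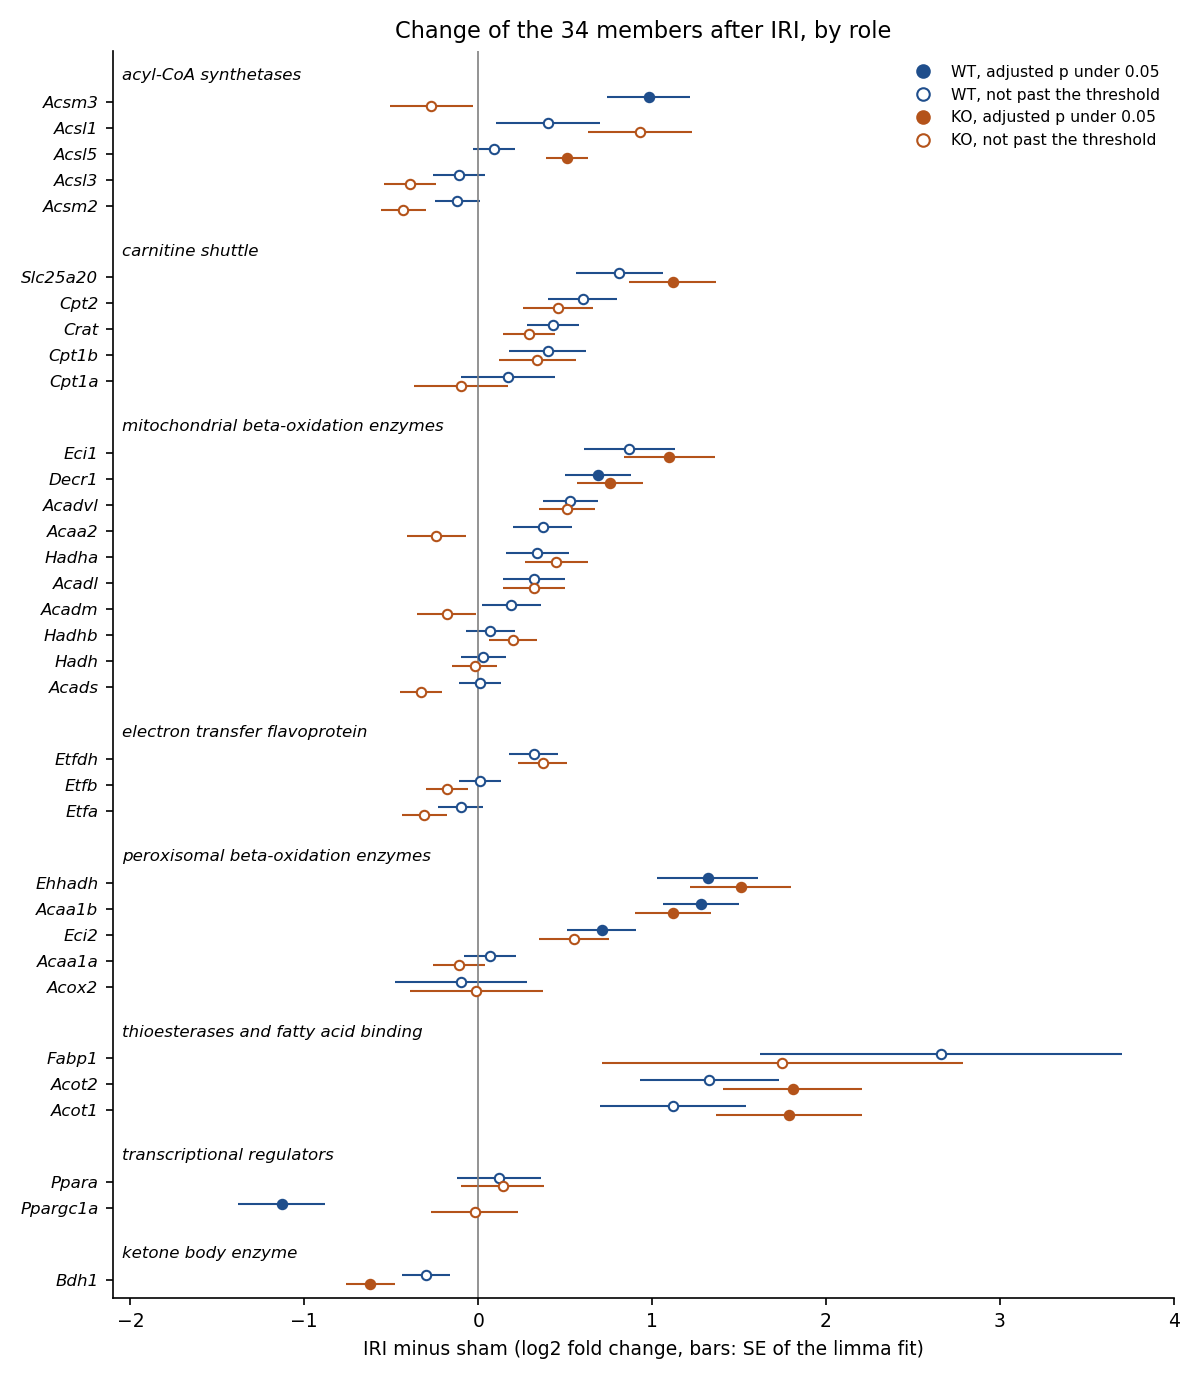
Change of each of the 34 genes after IRI (log2 fold change, IRI minus sham, bars are the SE of the limma fit, n = 3 per group) in WT (blue) and KO (orange) kidneys, grouped by role. Filled points passed an adjusted p under 0.05, which 6 genes did in WT and 9 in KO, and Ppargc1a lies at -1.13 in WT and -0.02 in KO.

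These counts rest on few arrays. The WT count of 6 was 12 when WT sham replicate 3 was left out (9.43% of all genes called), but 1 when WT sham replicate 1 or replicate 2 was (3.32% and 3.26% of all genes). It was 2 when WT IRI replicate 3 was left out (4.64% of all genes), and 14 when WT sham replicate 3 and WT IRI replicate 1 were dropped together (13.5% of all genes). The KO count of 9 was 0 without any one of the KO sham arrays, where 1.75% to 2.86% of all genes were called. It was 1, 2 or 3 without KO IRI replicate 1, 2 or 3, where 3.56%, 3.94% and 2.83% of all genes were called. Without both WT arrays the KO count was 15, with 14.4% of all genes called. Fitted on the 6 WT arrays alone, none of the 34 genes passed in WT (1.61% of all genes did), whereas 11 passed in KO when fitted on its own 6 arrays (9.41% of all genes).

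Of the 5 peroxisomal beta-oxidation enzymes, 3 rose in WT and 2 in KO, and none fell. Of all genes, 6.07% rose in WT and 2.11% in KO, and 5.90% and 4.05% fell. Acaa1b, a peroxisomal thiolase that completes the cycle, read 3.9, 4.02 and 4.36 in WT sham and 5.03, 5.2 and 5.89 in WT IRI. KO kidneys read 4.67, 4.54 and 4.55 after sham and 5.57, 5.89 and 5.66 after IRI. Every injured kidney was above every sham kidney of either genotype. The rise was 1.28 ± 0.22 in WT (2.43-fold, adjusted p = 0.00785) and 1.12 ± 0.22 in KO (2.17-fold, adjusted p = 0.0164). It passed in 22 of 23 other settings for WT mice (8.64e-07 to 0.0744) and in 19 of 23 for KO mice (0.000573 to 0.067).

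Ehhadh, the bifunctional enzyme that carries out the middle steps of the peroxisomal cycle, read 5.66, 5.43 and 6.45 in WT sham and 7.61, 6.7 and 7.19 in WT IRI. The KO arrays gave 5.86, 5.51 and 5.7 after sham and 7.33, 7.34 and 6.93 after IRI. The groups did not overlap in either genotype, although WT sham replicate 3 came close to the lowest injured array. The rise was 1.32 ± 0.29 in WT (2.5-fold, adjusted p = 0.019) and 1.51 ± 0.29 in KO (2.85-fold, adjusted p = 0.0159). Without WT sham replicate 3 the WT rise was 1.62 ± 0.26. The WT call was lost when WT sham replicate 1, WT sham replicate 2 or WT IRI replicate 3 was left out, and with only the WT arrays fitted. The KO call was lost in 4 of 23 other settings (adjusted p up to 0.0609), among them each fit without a KO sham array.

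Eci2, an isomerase for unsaturated fatty acids, rose by 0.71 ± 0.2 in WT (adjusted p = 0.0451). Its KO change of 0.55 ± 0.2 missed the threshold (adjusted p = 0.143), though its groups did not overlap there. The WT call was lost in 13 of 23 other settings. Acox2, an oxidase for branched fatty acids and bile acid precursors, changed by -0.1 ± 0.38 in WT and -0.01 ± 0.38 in KO, and WT IRI replicate 1 (3.64) lay below the other WT IRI arrays (5.41 and 5.24). Acaa1a, the close relative of Acaa1b, changed by 0.07 ± 0.15 in WT and -0.11 ± 0.15 in KO by its brightest probe. A second, dimmer Acaa1a probe gave 0.89 and 0.87, so the probes of this gene disagree, and with Acaa1b as a near copy its reading is uncertain.

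The thioesterases Acot1 and Acot2 release free fatty acids from acyl-CoA, the first in the cytosol and the second in mitochondria, and the probes of both lie on chromosome 12. Acot1 read 5.06, 5.01 and 6.67 in WT sham and 7.1, 6.27 and 6.72 in WT IRI. In KO it read 5.05, 5.04 and 4.96 after sham and 7.18, 7 and 6.25 after IRI. WT sham replicate 3 was above 1 of the injured WT arrays, whereas the KO groups were well apart. Acot1 rose by 1.79 ± 0.42 in KO (3.46-fold, adjusted p = 0.0352), and in WT the change of 1.12 ± 0.42 did not pass (adjusted p = 0.11). Without WT sham replicate 3 the WT change was 1.66 ± 0.29 and passed (adjusted p = 0.0104). It did not pass with WT sham replicate 1 or replicate 2 left out instead.

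Acot2 had the same pattern over arrays, and whether either probe also reads the transcript of the other gene was not tested. It read 2.04, 2.04 and 3.59 in WT sham, and 4.35, 3.37 and 3.93 in WT IRI. The KO arrays read 2.17, 1.98 and 2.05 after sham and 4.17, 3.94 and 3.5 after IRI. Again WT sham replicate 3 fell among the injured kidneys, and no KO sham array did. Acot2 rose by 1.81 ± 0.4 in KO (3.5-fold, adjusted p = 0.0281), and its WT change of 1.33 ± 0.4 (adjusted p = 0.0569) became 1.84 ± 0.28 without that array. The KO calls of both thioesterases were lost in 3 of 3 fits that left out a KO sham array.

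Fabp1, the liver-type fatty acid binding protein that shuttles fatty acids through the cytosol, had the largest fitted change in WT and the largest standard error. It read -3.09, -3.27 and -1.24 in WT sham and -2.73, 1.05 and 2.06 in WT IRI. The KO arrays read -1.24, -1.49 and -1.37 after sham and -0.55, 0.78 and 0.91 after IRI. WT IRI replicate 1 lay at the level of WT sham kidneys, whereas the other injured kidneys of both genotypes were above every sham kidney. The change was 2.66 ± 1.04 for WT (adjusted p = 0.123) and 1.75 ± 1.04 for KO (adjusted p = 0.375), and neither passed. Without WT IRI replicate 1 the WT change was 4.09 ± 0.64 and passed (adjusted p = 0.00593). Of 7 liver markers, none passed in WT after IRI, and in KO Apoh rose and Ttr fell. In sham kidneys Alb (1.23 ± 0.18) and Ttr were higher in KO than in WT and Apoh was lower, where Fabp1 differed by 1.17 ± 1.04 and did not pass. Fga read 0.36, 0.16 and 3.83 in WT sham and 5.54, 1.67 and 3.03 in WT IRI, and its changes of 1.96 ± 1.05 in WT and 3.26 ± 1.05 in KO did not pass. The summed level of the liver markers was 7.99 to 8.45 in WT sham, 8.01 to 8.68 in WT IRI, 8.39 to 8.79 in KO sham and 8.26 to 8.63 in KO IRI, and their part in the Fabp1 values was not tested.

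**Figure D3:**
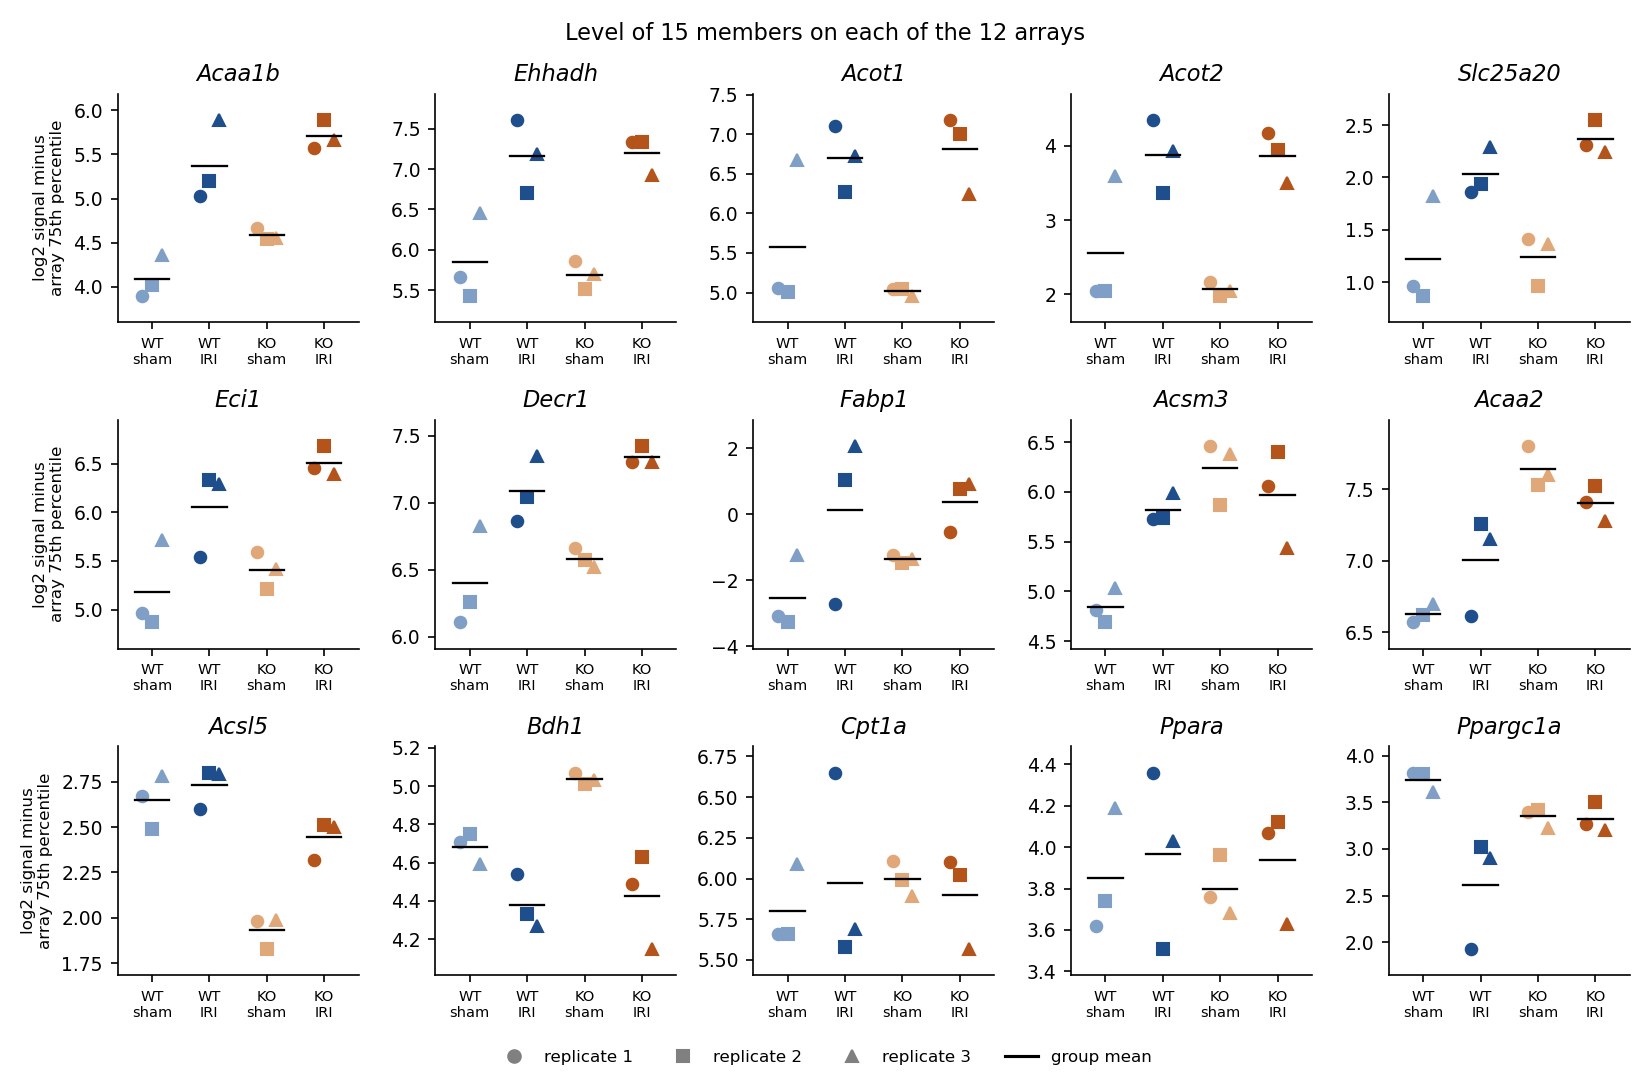
Level of 15 of the genes on each array (log2 signal minus the 75th percentile of the array), by group, with a symbol for each replicate number and a line at the group mean. For Acot1 and Acot2, WT sham replicate 3 (6.67 and 3.59) lies among the injured kidneys, and for Fabp1 WT IRI replicate 1 (-2.73) lies among the uninjured ones.

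The carnitine shuttle moves long-chain fatty acids across the inner mitochondrial membrane. Slc25a20, the carrier that exchanges acylcarnitine for carnitine, read 0.96, 0.87 and 1.82 in WT sham and 1.86, 1.94 and 2.29 in WT IRI. KO kidneys read 1.41, 0.96 and 1.36 after sham and 2.31, 2.55 and 2.24 after IRI. The groups did not overlap, although WT sham replicate 3 was just under the lowest injured WT array. Slc25a20 rose by 1.12 ± 0.25 in KO (2.17-fold, adjusted p = 0.0281). In WT the change was 0.81 ± 0.25 (adjusted p = 0.0595), and 1.11 ± 0.19 without WT sham replicate 3 (adjusted p = 0.0095).

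Cpt1a encodes the carnitine palmitoyltransferase of the outer membrane, which sets the rate of entry. It read 5.66, 5.66 and 6.09 in WT sham and 6.65, 5.58 and 5.69 in WT IRI. The KO arrays read 6.11, 5.99 and 5.89 after sham and 6.1, 6.02 and 5.57 after IRI. Apart from WT IRI replicate 1, the injured kidneys read at the level of sham kidneys. The change was 0.17 ± 0.27 for WT (adjusted p = 0.723) and -0.1 ± 0.27 for KO (adjusted p = 0.875), and the WT value was -0.17 without WT IRI replicate 1. Cpt2, its partner on the inner membrane, changed by 0.6 ± 0.2 in WT and 0.46 ± 0.2 in KO, and the muscle form Cpt1b by 0.4 ± 0.22 and 0.34 ± 0.22. Crat, which exchanges short acyl groups, changed by 0.43 ± 0.15 and 0.29 ± 0.15. None of these 3 passed in either genotype, and Cpt2 passed in WT without WT sham replicate 3 (0.83 ± 0.16).

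Of the 10 mitochondrial beta-oxidation enzymes, Decr1 rose in both genotypes and Eci1 in KO. Decr1, a reductase needed for polyunsaturated fatty acids, read 6.11, 6.26 and 6.83 in WT sham and 6.86, 7.04 and 7.35 in WT IRI. The KO arrays gave 6.66, 6.57 and 6.52 after sham and 7.3, 7.42 and 7.3 after IRI. The injured kidneys were above the sham kidneys in both genotypes, with WT sham replicate 3 just under the lowest WT injured array. The rise was 0.69 ± 0.19 in WT (1.61-fold, adjusted p = 0.042) and 0.76 ± 0.19 in KO (1.69-fold, adjusted p = 0.0438). These calls sat near the threshold and were lost in 15 of 23 other settings in WT and 10 of 23 in KO.

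Eci1, the mitochondrial isomerase for unsaturated fatty acids, read 4.96, 4.87 and 5.72 in WT sham and 5.54, 6.33 and 6.29 in WT IRI. In KO it read 5.59, 5.21 and 5.42 after sham and 6.46, 6.68 and 6.39 after IRI. Here WT sham replicate 3 was above WT IRI replicate 1, and the KO groups were apart. Eci1 rose by 1.1 ± 0.26 in KO (2.15-fold, adjusted p = 0.0381). The WT change was 0.87 ± 0.26 (adjusted p = 0.0576), and it passed without WT sham replicate 3 (1.14 ± 0.24) or without WT IRI replicate 1 (1.13 ± 0.24).

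None of the chain-length dehydrogenases or trifunctional protein subunits passed in either genotype. Acadvl, which starts the cycle on very long chains, changed by 0.53 ± 0.16 for WT (adjusted p = 0.051) and 0.51 ± 0.16 for KO (adjusted p = 0.0849), and its groups did not overlap in either. It passed in both genotypes with quantile normalization, the authors' log2 values, normexp background correction or a trended variance. With no filter on dim probes or with the replicate block it passed in neither. Acadl, the long-chain dehydrogenase, changed by 0.32 ± 0.18 in both genotypes. Acadm, the medium-chain dehydrogenase, changed by 0.19 ± 0.17 in WT and -0.18 ± 0.17 in KO, and Acads, the short-chain form, by 0.01 ± 0.12 and -0.33 ± 0.12. The subunits of the trifunctional protein, which takes over after the first step, changed by 0.34 ± 0.18 and 0.45 ± 0.18 (Hadha) and by 0.07 ± 0.14 and 0.2 ± 0.14 (Hadhb). Hadh, the short-chain hydroxyacyl-CoA dehydrogenase, changed by 0.03 ± 0.13 and -0.02 ± 0.13. Acaa2, the mitochondrial thiolase, changed by 0.37 ± 0.17 in WT and -0.24 ± 0.17 in KO. Neither Hadh nor Acaa2 passed.

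The electron transfer flavoprotein takes electrons from the acyl-CoA dehydrogenases to the respiratory chain. Its subunits changed by -0.1 ± 0.13 in WT and -0.31 ± 0.13 in KO (Etfa) and by 0.01 ± 0.12 and -0.18 ± 0.12 (Etfb). Its oxidoreductase Etfdh changed by 0.32 ± 0.14 and 0.37 ± 0.14. None of the 3 passed, with adjusted p values between 0.168 and 0.955.

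Among the acyl-CoA synthetases the members differed from one another. Acsm3, a medium-chain synthetase of mitochondria, read 4.81, 4.69 and 5.03 in WT sham and 5.73, 5.74 and 5.99 in WT IRI. KO kidneys read 6.46, 5.87 and 6.38 after sham and 6.06, 6.4 and 5.44 after IRI. WT sham kidneys were below all other kidneys, and the KO groups overlapped. Acsm3 rose by 0.98 ± 0.24 in WT (1.97-fold, adjusted p = 0.0296) and changed by -0.27 ± 0.24 in KO (adjusted p = 0.581). A second, dimmer Acsm3 probe gave 0.41 in WT and -1.17 in KO. The WT call was lost in 7 of 23 other settings, among them the mean of the probes (0.69).

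Acsl5, a long-chain synthetase, read 2.67, 2.49 and 2.78 in WT sham and 2.6, 2.8 and 2.79 in WT IRI. The KO arrays gave 1.98, 1.83 and 1.99 after sham and 2.32, 2.51 and 2.5 after IRI. The KO sham kidneys were below the rest. Acsl5 rose by 0.51 ± 0.12 in KO (1.42-fold, adjusted p = 0.0353), but a second, dimmer probe gave -0.11, and with the probes averaged the call was lost. Acsl1, the main long-chain synthetase, changed by 0.4 ± 0.3 in WT and 0.93 ± 0.3 in KO (adjusted p = 0.104), where its groups did not overlap. Acsl3, a synthetase of the endoplasmic reticulum and lipid droplets, changed by -0.11 ± 0.15 and -0.39 ± 0.15. Acsm2, a synthetase abundant in proximal tubule, changed by -0.12 ± 0.13 and -0.43 ± 0.13 (adjusted p = 0.0898 in KO).

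Of the pair of transcriptional regulators, Ppargc1a fell in WT and Ppara did not pass in either genotype. Ppara, which encodes PPAR-alpha, read 3.62, 3.74 and 4.19 in WT sham and 4.36, 3.51 and 4.03 in WT IRI. In KO it read 3.76, 3.96 and 3.68 after sham and 4.07, 4.12 and 3.63 after IRI. All 4 groups overlapped. The change was 0.12 ± 0.24 for WT (adjusted p = 0.789) and 0.14 ± 0.24 for KO (adjusted p = 0.791), and a second probe gave 0.07 and 0.24.

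Ppargc1a, which encodes PGC-1alpha, read 3.82, 3.81 and 3.61 in WT sham and 1.93, 3.02 and 2.9 in WT IRI. KO kidneys read 3.4, 3.42 and 3.23 after sham and 3.27, 3.51 and 3.2 after IRI. WT injured kidneys were below every other kidney, and KO injured kidneys lay among their shams. Ppargc1a fell by 1.13 on the log2 scale in WT (SE 0.25, adjusted p = 0.019), and a second probe gave -1.03. Without WT IRI replicate 1, the lowest array, the value was -0.79 ± 0.13. In KO the change was -0.02 ± 0.25 (adjusted p = 0.974), with -0.11 to 0.06 over the other settings.

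Bdh1, the mitochondrial enzyme that interconverts the ketone bodies acetoacetate and beta-hydroxybutyrate, read 4.71, 4.75 and 4.59 in WT sham and 4.54, 4.33 and 4.27 in WT IRI. The KO arrays gave 5.07, 5.01 and 5.03 after sham and 4.49, 4.63 and 4.15 after IRI. Injured kidneys were below sham kidneys in both genotypes, and the KO shams were above all others. Bdh1 fell by 0.62 in KO (SE 0.14, 1.53-fold, adjusted p = 0.0295). The WT change was -0.3 ± 0.14 (adjusted p = 0.178).

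Split by compartment, the 22 mitochondrial genes had a median change of 0.33 in WT and 0.25 in KO, the 5 peroxisomal genes 0.71 and 0.55, and the 10 known PPAR-alpha targets 0.97 and 1.12. These sets overlap, since 5 of the PPAR-alpha targets are mitochondrial and 2 are peroxisomal. The PPAR-alpha list was drawn up with earlier results of these data known, so its medians are a description only. Genes outside the list were not shown to be non-targets. Among the PPAR-alpha targets (Cpt1a, Cpt1b, Slc25a20, Acadm, Ehhadh, Acaa1b, Acsl1, Acot1, Acot2 and Fabp1), 2 rose and none fell in WT, and 5 rose and none fell in KO. Among the 17 mitochondrial genes outside that list, 2 rose in WT (Acsm3 and Decr1), and in KO 2 rose (Eci1 and Decr1) and 1 fell (Bdh1). Their median changes were 0.32 and 0.2. Beside these counts, 6.07% of all genes rose and 5.90% fell in WT, and 2.11% rose and 4.05% fell in KO. The 3 peroxisomal genes outside the list (Acox2, Acaa1a and Eci2) had medians of 0.07 and -0.01, and only Eci2 in WT passed. That WT median is the value of Acaa1a, whose second probe gave 0.89 in WT. With its probes averaged, Acaa1a passed in WT. Ehhadh and Acaa1b, the peroxisomal genes on the PPAR-alpha list, had the highest values of the peroxisomal set in both genotypes. Without WT sham replicate 3 the WT count of PPAR-alpha targets was 5 (9.43% of all genes called) and their median 1.27. The median of Acox2, Acaa1a and Eci2 was then 0.1. Without WT IRI replicate 1 the WT medians were 0.91 for the PPAR-alpha targets and 0.46 for Acox2, Acaa1a and Eci2. No difference between these sets was tested.

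PPAR-alpha binds as a dimer with RXR to a direct repeat of AGGTCA spaced by 1 base, here searched as that repeat on both strands from 250 bases before to 50 bases after the start site in the RefSeq promoter table (GRCm38.p6). The table holds promoters of 30 of the 34 genes, 34 entries in all. With at most 1 mismatch the motif was found in 1 entry, that of Fabp1 (2.94%, against 0.554% of all 32851 entries). With at most 2 mismatches it was found in 4 entries, those of Fabp1, Slc25a20, Etfa and Acox2 (11.8%, against 3.86% of all). The single repeat AGGTCA was in 11.8% of the entries and in 16.3% of all. The stretches below run from 250 bases before to 20 bases after the start site, 5′ to 3′ on the strand of the gene, and are shown for the pair of PPAR-alpha targets with a match and for 2 that rose without a match in this window. Capitals mark the match, which in Fabp1 lies on the opposite strand with its first base at position -67 and in Slc25a20 on the same strand at position 7.
Fabp1 (chr6:71199629-71199898, plus strand): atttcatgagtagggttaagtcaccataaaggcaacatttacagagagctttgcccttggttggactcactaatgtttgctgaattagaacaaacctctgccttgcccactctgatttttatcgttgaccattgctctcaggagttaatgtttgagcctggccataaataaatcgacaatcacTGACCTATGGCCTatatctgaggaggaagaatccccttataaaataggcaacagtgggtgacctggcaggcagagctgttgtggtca
Slc25a20 (chr9:108661886-108662155, plus strand): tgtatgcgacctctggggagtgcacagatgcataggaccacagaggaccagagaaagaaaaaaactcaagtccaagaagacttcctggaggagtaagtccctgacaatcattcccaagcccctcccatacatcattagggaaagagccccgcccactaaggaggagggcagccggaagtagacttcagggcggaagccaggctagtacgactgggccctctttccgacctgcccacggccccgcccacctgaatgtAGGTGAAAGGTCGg
Ehhadh (chr16:21787815-21788084, minus strand): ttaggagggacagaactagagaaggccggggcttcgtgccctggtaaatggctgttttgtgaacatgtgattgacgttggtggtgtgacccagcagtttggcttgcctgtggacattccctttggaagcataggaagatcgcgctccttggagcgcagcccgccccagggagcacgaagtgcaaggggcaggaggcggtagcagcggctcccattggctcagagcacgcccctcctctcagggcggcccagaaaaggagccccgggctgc
Acot1 (chr12:84009252-84009521, plus strand): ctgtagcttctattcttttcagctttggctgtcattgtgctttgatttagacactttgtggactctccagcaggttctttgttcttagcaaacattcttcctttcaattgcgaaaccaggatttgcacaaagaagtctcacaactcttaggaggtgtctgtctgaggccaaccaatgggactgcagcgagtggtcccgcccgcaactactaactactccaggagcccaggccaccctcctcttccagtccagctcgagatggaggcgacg
Fabp1 holds the closest match, and its change did not pass on all arrays but passed in WT without WT IRI replicate 1. Slc25a20, matched with 2 mismatches, rose in KO and missed the threshold in WT. Etfa and Acox2, matched in the same way, passed in neither genotype. With no match in these letters, Ehhadh rose in both genotypes and Acot1 in KO only. Whether a match goes with a rise was not tested. A match is a description of the sequence, and no match says only that these letters are not in this window.

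Genes of the same pathways outside the 34 included more that fell. Over all genes, 6.07% rose and 5.90% fell in WT, and 2.11% rose and 4.05% fell in KO. Of 24 other genes of mitochondrial oxidation measured, 1 rose and 6 fell in WT and 1 rose and 7 fell in KO, with medians of -0.19 and -0.23. The one that rose in both was Acsl4, a synthetase for arachidonic acid (1.68 ± 0.25 in WT and 1.66 ± 0.25 in KO), which is named after its values were seen. Acsm5, a relative of Acsm3, fell by 1.16 in WT and 1.31 in KO (SE 0.28 in both). Of 23 other peroxisomal genes, 3 rose and 2 fell in WT and 3 rose and 4 fell in KO, and Pecr, a reductase of the peroxisome, fell by 1.09 and 1.27 (SE 0.15 in both). Of 7 other ketone body genes, 2 rose and 2 fell in WT and 1 rose and 3 fell in KO. Bdh2, a second hydroxybutyrate dehydrogenase, fell by 0.81 and 0.7 (SE 0.13 in both). Slc5a8, a tubular carrier that takes up ketone bodies and lactate, fell by 0.8 in WT and 1.43 in KO (SE 0.2 in both).

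Among known PPAR-alpha targets outside oxidation, no called gene fell. This list too was drawn up with earlier results of these data known. Of 14 measured, 5 rose and none fell in either genotype, with medians of 1.2 in WT and 1.54 in KO. The shares of all genes that rose were 6.07% in WT and 2.11% in KO, and 5.90% and 4.05% fell. Plin2, a coat protein of lipid droplets, read 4.3, 4.24 and 6.21 in WT sham, 8.42, 6.38 and 7.9 in WT IRI, 4.38, 4.08 and 4.24 in KO sham and 7.08, 6.24 and 6.54 in KO IRI. It rose by 2.65 ± 0.59 in WT and 2.39 ± 0.59 in KO. Plin5, another lipid droplet coat protein, read 1.03, 1.04 and 2.29 in WT sham and 3.94, 2.71 and 3.7 in WT IRI. It rose by 1.99 ± 0.44 in WT, and its KO change of 1.6 ± 0.44 missed the threshold (adjusted p = 0.059). WT sham replicate 3 was the highest WT sham array for both genes. Of 18 partners and relatives of the regulators, 1 rose in each genotype and none fell.

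**Figure D4:**
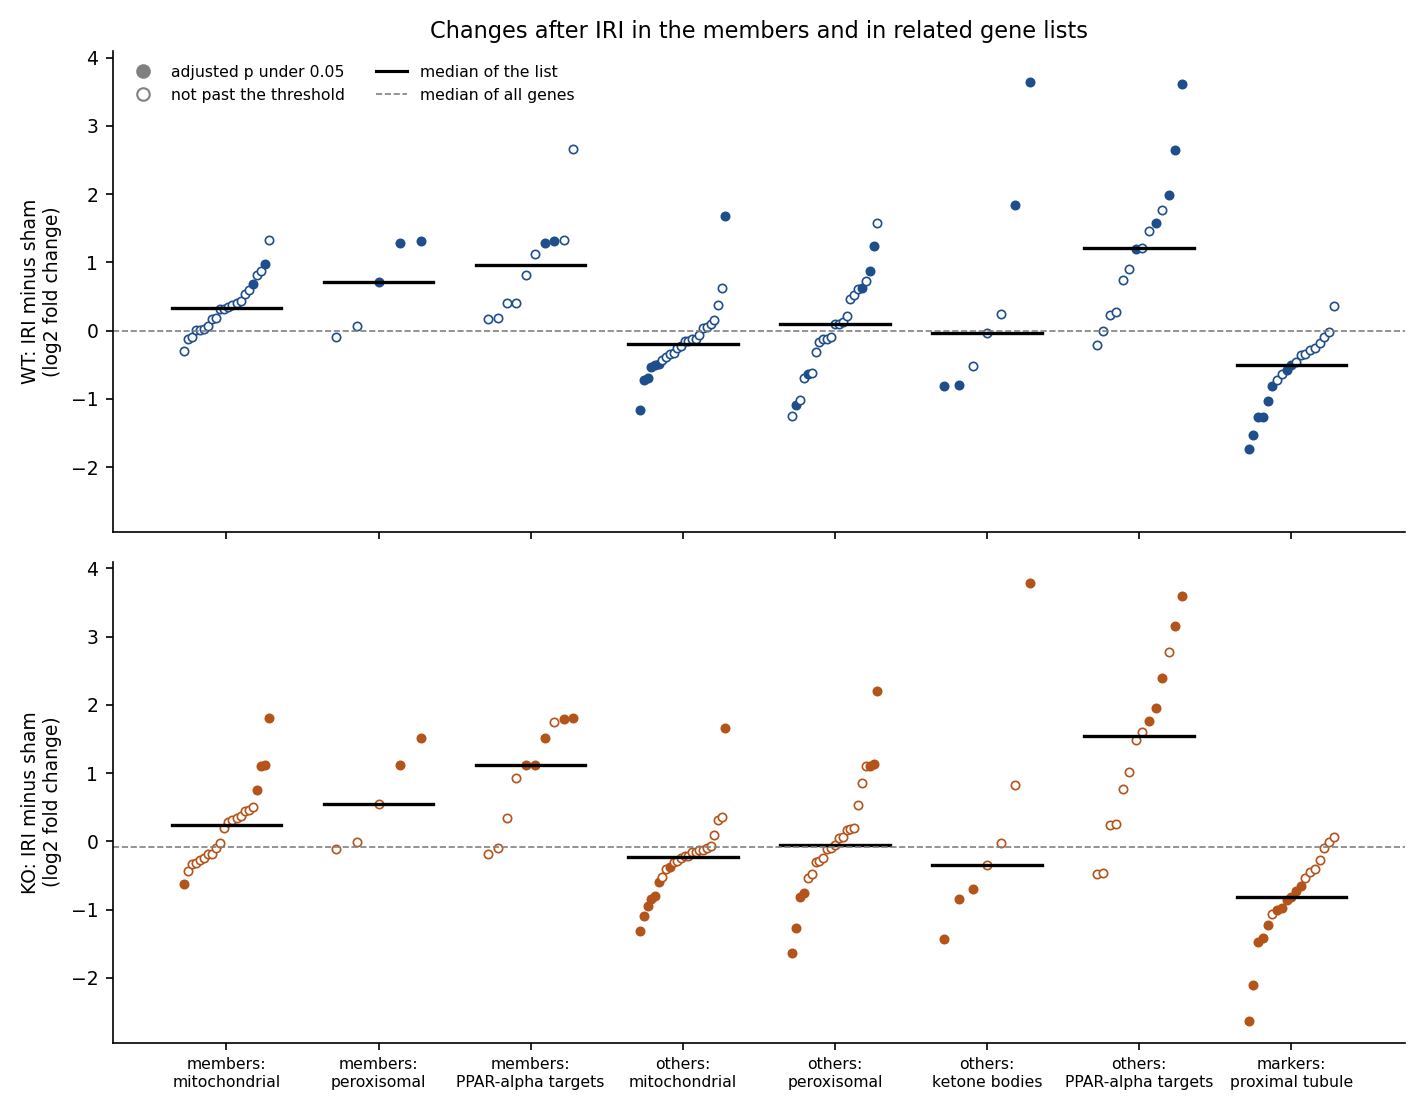
Changes after IRI (log2 fold change, IRI minus sham) in WT (top) and KO (bottom) for the genes of 8 lists, with filled points for an adjusted p under 0.05, black lines at list medians and dashed lines at the median of all genes (-0.01 and -0.08). PPAR-alpha targets among the 34 genes have medians of 0.97 and 1.12 and those outside oxidation 1.2 and 1.54, whereas proximal tubule markers have -0.5 and -0.82.

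Markers of other cell types and of the tubule moved as well. As a measure for the counts below, 5.90% of all genes fell in WT and 4.05% in KO, and 6.07% and 2.11% rose. Of 19 proximal tubule markers, 8 fell in WT and 11 in KO and none rose. Their summed level was 10.32 to 10.49 in WT sham, 9.87 to 9.98 in WT IRI, 10.61 to 10.81 in KO sham and 9.96 to 10.12 in KO IRI. In such bulk samples, fewer cells of a type and less RNA per cell cannot be told apart. Of 10 adipocyte markers, 4 rose in WT and 2 in KO, and none fell, with a summed level of 5.09 to 5.69 in WT sham, 6.23 to 7.07 in WT IRI, 5.26 to 5.55 in KO sham and 6.03 to 6.32 in KO IRI. All 19 tubule markers were well above background on all arrays, and of the adipocyte markers Adipoq, Plin1 and Retn were not on every array. In KO 5 of the 10 adipocyte markers had a positive and 5 a negative change (median 0.27). WT sham replicate 3 had the highest adipocyte sum of its group (5.69) and the lowest leukocyte sum (4.85, against 5.32 and 5.33), with a proximal tubule sum of 10.32. The adipocyte sum is weighted to the bright Pnpla2 (4.42, 4.46 and 5.26 in WT sham). Plin4, Lep, Lipe and Pnpla2 were highest in WT sham replicate 3, but Adipoq, Cidec, Plin1, Retn, Cfd and Fabp4 in replicate 1. Of 5 brown adipocyte markers, none rose and 1 fell in each genotype. Ucp1, Cidea and Cox8b were the highest of their group in WT IRI replicate 2 and in KO sham replicate 2. Cox7a1 was so only in WT IRI replicate 2, and Dio2 in neither. Ucp1 read 1.71 in WT IRI replicate 2 and -8.46 to -8.13 in WT sham, where no array was well above background. The part of these markers in the results was not tested.

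In sham kidneys, 2 of the 34 genes were higher in KO than in WT and 1 was lower, or 5.88% and 2.94%, where 5.13% of all genes were higher and 3.74% lower (8.87% in either direction). These shares are near those of all genes. Acsm3 was higher by 1.39 ± 0.24 (2.62-fold, adjusted p = 0.00898). Acaa2 read 6.57, 6.62 and 6.7 in WT sham and 7.8, 7.53 and 7.6 in KO sham. After IRI it read 6.61, 7.26 and 7.15 in WT and 7.41, 7.52 and 7.28 in KO. The KO sham kidneys were the highest and the WT sham kidneys the lowest, with WT IRI replicate 1 among the latter. Acaa2 was higher in KO sham by 1.01 ± 0.17 (2.02-fold, adjusted p = 0.0074), and it passed in 23 of 23 other settings, as did Acsm3. Acsl5 was lower in KO by -0.71 ± 0.12 (adjusted p = 0.00802), but its second probe gave 0.43 and the mean of the probes -0.14.

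All 3 KO sham arrays lay above all 3 WT sham arrays for 13 of the 34 genes, or 38.2%, where this held for 30.6% of all genes. They lay below for 2 genes (Acsl5 and Ppargc1a, 5.88%), where 12.2% of all genes did, and 42.7% of all genes did not overlap in either direction. Among them were Acadm (0.51 ± 0.17, adjusted p = 0.0908), Bdh1 (0.36 ± 0.14, adjusted p = 0.144), Acaa1a (0.42 ± 0.15, adjusted p = 0.109) and Acaa1b (0.49 ± 0.22, adjusted p = 0.191). The median difference of the 34 genes was 0.21 and that of all genes 0.12. Of the 19 proximal tubule markers, 17 had a positive difference in the same comparison and 2 passed. Without WT IRI replicate 1, which enters this comparison only through the shared estimate of the spread, the count of genes called was 7, while the share of all genes called went from 8.87% to 17%. Slide and genotype cannot be told apart for any of these values.

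After IRI no difference between KO and WT passed among the 34 genes, where 1.93% of all genes did (0.910% higher and 1.02% lower). At an unadjusted p under 0.05 there were 4 genes (11.8%, against 21.7% of all genes). With array weights 5 passed, or 14.7%, where 30.7% of all genes did. The largest difference was that of Ppargc1a (0.71 ± 0.25, adjusted p = 0.148, 0.0181 to 0.409 over the other settings), for which all KO arrays were above all WT arrays. Next were Eci1 (0.46 ± 0.26) and Acaa2 (0.4 ± 0.17), whose groups did not overlap either. In the other direction only Acsl5 did not overlap (-0.29 ± 0.12). Without WT IRI replicate 1 the differences were 0.37 ± 0.13 for Ppargc1a, 0.2 ± 0.24 for Eci1 and 0.2 ± 0.12 for Acaa2. Fabp1 then had the largest (-1.17 ± 0.64, against 0.25 ± 1.04 with that array), and none of the 34 genes passed. These 3 genes higher and 1 lower are 8.82% and 2.94%, where 12.3% and 9.45% of all genes did not overlap (21.8% in either direction). Ehhadh differed by 0.03 ± 0.29, Acot1 by 0.11 ± 0.42, Acot2 by -0.01 ± 0.4 and Cpt1a by -0.08 ± 0.27.

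**Figure D5:**
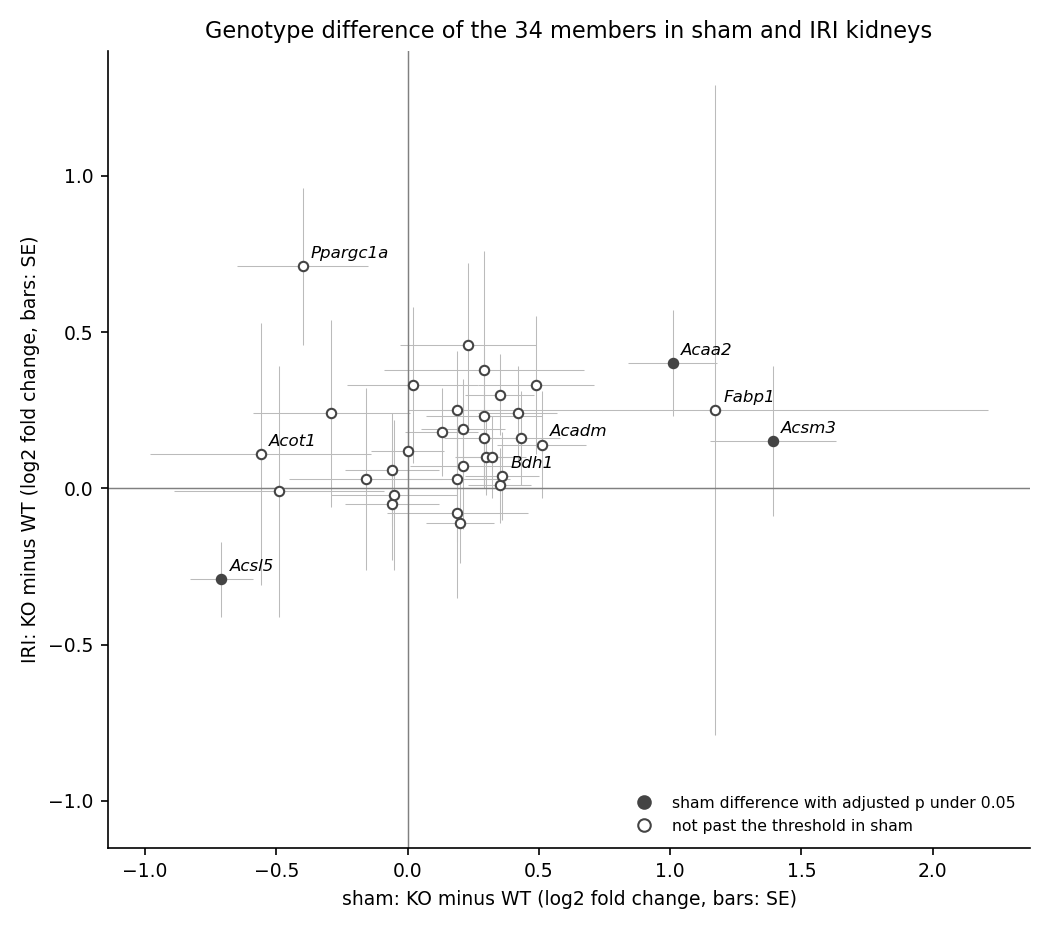
Difference between KO and WT (log2 fold change, bars are the SE of the limma fit, n = 3 per group) in sham kidneys (horizontal axis) and after IRI (vertical axis) for the 34 genes. Acsm3 (1.39), Acaa2 (1.01) and Acsl5 (-0.71), as filled points, passed an adjusted p under 0.05 in sham, and none passed after IRI.

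Whether the IRI response differed between genotypes was tested by the interaction, the KO response minus the WT response. None of the 34 genes passed, where 0.0694% of all genes did (0.0193% higher and 0.0501% lower). At an unadjusted p under 0.05 there were 4 genes (11.8%, against 9.77% of all genes). With array weights 8 passed, or 23.5%, where 25.3% of all genes did. The largest values were those of Acsm3 (-1.25 ± 0.34, adjusted p = 0.315) and Ppargc1a (1.11 ± 0.35, adjusted p = 0.368, 0.00212 to 0.653 over the other settings). Without WT IRI replicate 1, Fabp1 had the largest value (-2.34 ± 0.86, against -0.92 ± 1.48 with that array), Acsm3 had -1.29 ± 0.37 and Ppargc1a 0.77 ± 0.17, and none of the 34 genes passed. On all arrays Acaa2 had -0.62 ± 0.24 (adjusted p = 0.448) and Acsl5 0.42 ± 0.17 (adjusted p = 0.466). Ppargc1a fell and Acsm3 rose in WT and neither passed in KO, but the responses of the genotypes were not shown to differ for either gene.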

How the data were processed

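RNA of 12 kidney samples was labelled with Cy3 and hybridised to 12 one-colour Agilent arrays. Per the file headers, the deposited scanner files hold spot intensities from Agilent Feature Extraction, corrected for background and detrended within each array, and no step scaled the arrays to each other. The authors' own log2 values, deposited beside them, come with limma named, without a role, in the submitters' processing notes. They follow the processed intensities within each array (r of at least 0.9995), with equal medians, and how they were scaled is not stated by header or label.

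Control and outlier spots were left out, spots of a probe averaged, and log2 processed signals reduced by the 75th percentile of the array. A probe was kept if well above background on at least 3 of 12 arrays, which left 39449. A gene was read from its brightest kept probe, by mean level. limma 3.58.1 in R 4.3.3 fitted 1 coefficient per group on all 12 arrays (8 residual degrees of freedom), two-sided, with Benjamini-Hochberg adjustment over 25937 genes and a threshold of 0.05. Errors are standard errors of this fit, with n = 3 per group. The number of arrays limits the precision.

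The 34 members and the other gene lists were chosen with earlier results of these data known. Values on each array are given for Ppara, Ppargc1a, Cpt1a, Bdh1 and, per comparison, up to 6 members called in each direction, and values of Fabp1 and Acox2 were added after they were seen. Of other lists, up to 4 called genes per direction and comparison are taken by size, of which some go unreported here. Alternatives covered normalization, background, filter, probe choice, samples, variance model, block and left-out arrays. Replicate numbers did not pair samples, since deviations of same-numbered arrays correlated by -0.27 to 0.15.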

Additional observations from a re-analysis of the deposited data

How the results depend on the processing

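In the 23 other settings (22 for the interaction), no call among the named genes changed direction. Counts of called members moved as follows. In WT after IRI, 6 became 8 with quantile normalization or the authors' log2 values (13.3% of all genes called in each). The WT count was 10 with normexp (13.3%), 10 with a trended variance (14%) and 3 with the replicate block (9.57%). It was 25 with array weights and 0 with only the groups compared. Leaving out an array gave 1 to 12 (3.26% to 18%). Without WT sham replicate 3 and WT IRI replicate 1 together it was 14 (13.5%). In KO after IRI, 9 became 12 with quantile normalization or the authors' log2 values (6.27% and 6.29% of all genes called). The KO count was 4 with no filter on dim probes (3.08%), 20 with array weights and 5 with the replicate block (4.45%). It was 15 without the pair of WT arrays (14.4%), and 0 to 10 leaving out an array (1.75% to 12.5%). In sham, 3 became 5 with only the groups compared, 21 with array weights and 7 without the pair (11.3% of all genes called). Leaving out an array gave 3 to 7 in sham (2.5% to 17%). KO against WT after IRI moved from 0 to 5 and the interaction from 0 to 8 with array weights, under which 60.5% of all genes were called in WT after IRI, 27.6% in KO after IRI, 46.6% in sham, 30.7% between genotypes after IRI and 25.3% in the interaction. The fit on only the groups compared called 1.61% in WT and 9.41% in KO after IRI, and 15.6% in sham. Both genotype comparisons at 0 also gave 0 in each fit that left out an array. The pair was left out by a choice made after seeing the data. Slide as a random block was not run, because each group lies whole within 1 slide. The 3 arrays per group limit the size of change that can pass, and the probes used for the 34 genes were well above background on all 12 arrays.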
